A study of Mus musculus with 3 samples.

Results

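The regions described here are stretches of the mouse genome in which the libraries sciATACv2 and sciATACv3 of whole brain each had an accessible peak and the library sciATACv1 had none. They were chosen by the peak lists themselves: the peaks of the 3 libraries were merged wherever they overlapped by at least 1 bp, and a merged region was kept when peaks of both v2 and v3 lay in it and no peak of v1 did. The rule kept 57244 of the 825954 merged regions, which is 6.93% of them. Of the 379466 regions with peaks of both v2 and v3 they made up 15.1%. They are called v1-absent regions below, and the regions with a peak in each library are called regions of all 3.

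All 3 libraries came from whole brain of C57BL6 mice, and each version of the preparation is represented by 1 library. Nuclei were released by mincing and douncing, tagmented with barcoded transposase in 96 wells, pooled, and spread over a chip with 5184 nanowells for an indexed PCR. The sources used here do not give what sets the versions apart, how many nuclei and animals went into each, their sex and age, or the sequencing depth. Since a peak list records presence without height or reads, and there is 1 library per version, a difference between versions cannot be told apart from a difference between libraries, and a missing v1 peak shows that no peak was listed, not that the chromatin was closed.

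ATAC-seq uses the transposase Tn5, which inserts adapters into DNA that is not wrapped tightly by nucleosomes. Promoters of broadly used genes, many of them rich in CG dinucleotides, are open in nearly every cell, while enhancers, many of them inside or far from genes, are open in particular cell types. In whole brain, a peak list is therefore a mixture over neurons, glia and vessel cells, and rare cell types contribute few of its fragments.

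To show what kind of promoter the v1-absent regions held, the 250 bases before the start of 4 genes are printed. Their starts lie in 4 of the 5 widest v1-absent regions that contain a start. The sequences are RefSeq's for GRCm38.p6, which is mm10, written 5′ to 3′ on the strand of the gene, and the capitals mark each CG dinucleotide.
Tlr12 (minus strand, chr4:128618620-128618869): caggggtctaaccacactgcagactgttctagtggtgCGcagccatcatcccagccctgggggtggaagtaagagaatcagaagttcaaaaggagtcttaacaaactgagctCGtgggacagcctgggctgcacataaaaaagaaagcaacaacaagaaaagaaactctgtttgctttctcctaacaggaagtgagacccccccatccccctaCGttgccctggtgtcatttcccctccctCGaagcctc
Cd101 (minus strand, chr3:101029554-101029803): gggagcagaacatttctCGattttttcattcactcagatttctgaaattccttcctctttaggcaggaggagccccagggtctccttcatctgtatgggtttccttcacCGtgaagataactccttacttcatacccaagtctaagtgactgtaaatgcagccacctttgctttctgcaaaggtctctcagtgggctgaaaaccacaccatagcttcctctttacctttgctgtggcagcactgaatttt
Capn12 (plus strand, chr7:28881406-28881655): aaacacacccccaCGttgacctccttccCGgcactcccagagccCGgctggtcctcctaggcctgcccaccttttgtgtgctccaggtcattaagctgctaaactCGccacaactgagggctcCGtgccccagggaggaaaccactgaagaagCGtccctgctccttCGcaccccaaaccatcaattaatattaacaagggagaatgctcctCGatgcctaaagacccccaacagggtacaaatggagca
Tbpl2 (minus strand, chr2:24096596-24096845): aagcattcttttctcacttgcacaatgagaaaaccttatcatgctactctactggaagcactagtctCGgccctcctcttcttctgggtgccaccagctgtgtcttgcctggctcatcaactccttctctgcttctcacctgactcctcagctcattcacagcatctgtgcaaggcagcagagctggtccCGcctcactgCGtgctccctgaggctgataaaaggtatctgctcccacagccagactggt

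For contrast, the same stretch is printed for Nvl and Cul5. Both belong to the genes with the largest share of v1-absent regions in their bodies, yet their own starts lay in regions of all 3 libraries. They were chosen for this contrast after their values were seen.
Nvl (minus strand, chr1:181144205-181144454): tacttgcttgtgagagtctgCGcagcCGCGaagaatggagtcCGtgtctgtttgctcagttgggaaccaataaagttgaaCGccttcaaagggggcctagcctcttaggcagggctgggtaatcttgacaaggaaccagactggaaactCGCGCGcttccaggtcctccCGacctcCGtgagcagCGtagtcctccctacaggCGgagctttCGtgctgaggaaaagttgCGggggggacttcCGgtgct
Cul5 (minus strand, chr9:53667508-53667757): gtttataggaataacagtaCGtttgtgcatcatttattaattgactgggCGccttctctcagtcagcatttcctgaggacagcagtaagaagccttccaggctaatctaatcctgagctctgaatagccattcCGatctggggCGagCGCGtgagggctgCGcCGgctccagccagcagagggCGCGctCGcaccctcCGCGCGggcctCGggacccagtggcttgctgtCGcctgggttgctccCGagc

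The 4 starts in v1-absent regions had 4 CG dinucleotides in these bases for Tlr12, 2 for Cd101, 8 for Capn12 and 3 for Tbpl2, against 15 for Nvl and 17 for Cul5. The groups were not cleanly apart. Acsl5, of the same group as Nvl and Cul5 and with its start in a region of all 3, had 7. The remaining starts of that group had 18 to 33. Tlr12 encodes a Toll-like receptor, Cd101 a membrane protein of leukocytes, Capn12 a calpain protease, and Tbpl2 a relative of the TATA-binding protein that is known from oocytes. Nvl encodes an ATPase of ribosome production and Cul5 the scaffold of a ubiquitin ligase. The Tlr12 region ran over 3333 bp, of which 2688 bp lay under a v2 peak and 2439 bp under v3 peaks, and the nearest v1 peak was 1538 bp away. The Cd101 region measured 2819 bp with the nearest v1 peak at 726 bp, and the Tbpl2 region measured 2560 bp with the nearest at 2109 bp. The Capn12 region, 2707 bp wide, lay 17 bp from a v1 peak, so its class rested on a short gap. Gm9573, the second widest of these regions at 2937 bp, is a predicted gene and is named only.

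**Figure D1:**
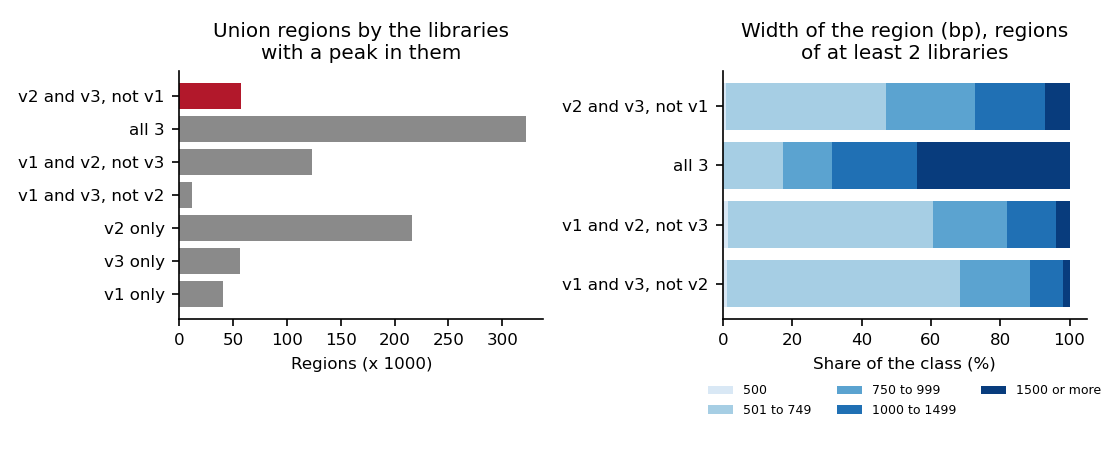
Left, number of merged regions (in units of 1000) by the set of libraries with a peak in them, with the 57244 v1-absent regions in red. Right, the share of each class (%) in 5 width classes (bp), where 7.20% of the v1-absent regions and 43.9% of the regions of all 3 were at least 1500 bp wide.

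The v1-absent regions in most cases rested on 1 peak from each library and were narrower than regions of all 3. Their median width was 777 bp, with 5% at or below 504 bp and 5% at or above 1635 bp, against 1365 bp for regions of all 3 libraries and 694 bp for all merged regions. The plot of the region classes shows these widths and also sets them beside the 123048 regions of v1 and v2 without v3, which had a median of 618 bp, and the 11275 regions of v1 and v3 without v2, with 564 bp. A merged region spans every peak in it, so the merging itself can add width where 3 libraries have peaks, by an amount not measured. The v2 and v3 peaks were also wider in regions of all 3, with medians of 789 and 876 bp, against 500 bp each in v1-absent regions. Exactly 1 v2 peak lay in 94.1% of the v1-absent regions and exactly 1 v3 peak in 96.8%. In total they drew on 60786 v2 peaks, 7.14% of that list, and on 59155 v3 peaks, 11.6% of that list. The lists held 850991 peaks for v2, 512023 for v3 and 622754 for v1.

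The peaks in these regions were shorter than those in regions of all 3. Their median width was 500 bp in v2, which is also the median of the whole v2 list, and 500 bp in v3, against 726 bp in the whole v3 list. The smallest width in the lists, 500 bp, was met by 66.6% of the v2 peaks and by 63.5% of the v3 peaks in v1-absent regions, against 36.5% of the v2 peaks and 32.2% of the v3 peaks in regions of all 3. The peaks of v2 and v3 met over a median of 490 bp per region. The share of regions lacking v1 also differed with width: among regions with both v2 and v3 peaks it was 70.3% of 694 regions at 500 bp, 32.3% at 501 to 749 bp, 24.3% at 750 to 999 bp, 12.7% at 1000 to 1499 bp and 2.83% at 1500 bp or more. The comparisons of regions in genes, over starts and at gene ends are also given at equal width below. The other comparisons are over all widths, among them those of CG counts, motifs, distances, chromosomes and gene lists.

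The 5 widest v1-absent regions show that the class also held broad open stretches. The widest spanned 4945 bp in Bms1, a gene of ribosome production, at chromosome 6, 118396966 to 118401910, where 1 v3 peak covered all of it, 4 v2 peaks covered 2228 bp and the nearest v1 peak lay 73 bp away. A region of 4566 bp on chromosome 4, 107228011 to 107232576, lay in no protein-coding gene and was 3947 bp from any v1 peak. Regions of 4468 bp in Dlec1, 4443 bp in Ciita and 4411 bp in Tnfrsf19 followed. Ciita encodes the master activator of MHC class II genes, and its region at chromosome 16, 10505562 to 10510004, lay 117 bp from a v1 peak. The Tnfrsf19 region, in a gene of the tumour necrosis factor receptor family, was covered from end to end by 1 v3 peak and lay 1149 bp from a v1 peak.

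Many v1-absent regions lay close to v1 peaks without meeting them. The median distance to the nearest v1 peak was 925 bp, with the middle 50% of regions between 342 and 2250 bp. In 4856 regions, 8.48% of them, the gap was under 100 bp, and in 1565 regions, 2.73%, it was 10000 bp or more. At the edge of the rule, 329 regions had a gap of 0 to 9 bp, of which 23 touched a v1 peak, while just outside it 27 regions of all 3 shared only 1 to 10 bp of v1 peak with the other libraries. The farthest region, 512 bp at chromosome 14, 42543364 to 42543875, was 408362 bp from any v1 peak, and another 505 bp region on that chromosome, at 42533316 to 42533820, was 398314 bp away. Both were made of 1 peak of 500 bp from each library, in a stretch without v1 peaks. The other far regions lay on chromosome 7 at 325740 bp, on chromosome 2 at 165050 bp and in Gm16867 on chromosome 14 at 125570 bp from a v1 peak.

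Most of the regions lay inside genes, but less often than regions of all 3 libraries. The midpoint fell in a protein-coding gene span for 57.7% of the v1-absent regions (exact 95% interval 57.3 to 58.1), against 65.1% (64.9 to 65.2) of the regions of all 3 and 54.4% of all merged regions. The regions missing from another library stood lower, at 49.0% (48.7 to 49.3) for those without v3 and 53.8% (52.9 to 54.7) for those without v2. At 501 to 749 bp the same order held, with 57.8% (57.2 to 58.4) of v1-absent regions in genes, 61.2% (60.8 to 61.6) of regions of all 3, 52.8% of those without v2 and 48.7% (48.4 to 49.1) of those without v3. The order was also the same at 750 to 999 bp, but not in the other width classes. Regions without v2 stood at 58.6%, against 56.9% of v1-absent regions, at 1000 to 1499 bp, and at 63.4% against 61.1% at 1500 bp or more. Regions of v3 alone stood at 55.1% over all widths. They exceeded v1-absent regions at 750 to 999 bp (58.6% against 56.8%), at 1000 to 1499 bp (62.7%) and at 1500 bp or more (74.6%). At 500 bp (54.7%) and at 501 to 749 bp (53.4%) they stood below them. Among the few regions of exactly 500 bp, 66.0% of 488 v1-absent regions and 38.3% of 206 regions of all 3 lay in genes. On each of the 20 chromosomes the share was lower in v1-absent regions than in regions of all 3, and on 14 of 20 it was higher than in regions without v3. These intervals cover counting error alone, and neighbouring regions of 1 library are not independent.

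Closeness to v1 peaks and position in genes went together. Of the v1-absent regions under 100 bp from a v1 peak, 71.3% lay in a protein-coding gene, and the share was 69.5% at 100 to 499 bp, 64.1% at 500 to 999 bp, 56.3% at 1000 to 1999 bp and 43.8% at 2000 to 4999 bp. At 5000 to 9999 bp it was 33.2% and at 10000 bp or more 25.9%. The first class thus stood above the 65.1% of regions of all 3, and the last below every other class of region, the lowest of which was v1 alone at 36.6%.

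Near gene starts, few of the regions with v2 and v3 peaks lacked v1. The starts are those of RefSeq's promoter table, which covers 19 of the 20 chromosomes. Of the regions with v2 and v3 peaks whose midpoint lay within 0.5 kb after a protein-coding start, 2.28% lacked v1 (1.92 to 2.69), and within 0.5 kb before a start 2.90% did (2.39 to 3.47), against 15.1% over all such regions. The share was 4.01% at 0.5 to 1 kb after the start and 7.91% at 0.5 to 1 kb before it. At 2 to 5 kb after the start it reached 18.9%, and at 5 to 10 kb before it 18.1%. At 50 to 100 kb after the start it was 14.0%. The plot against distance from a start shows this trough of about 1 kb on each side between higher shoulders.

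**Figure D2:**
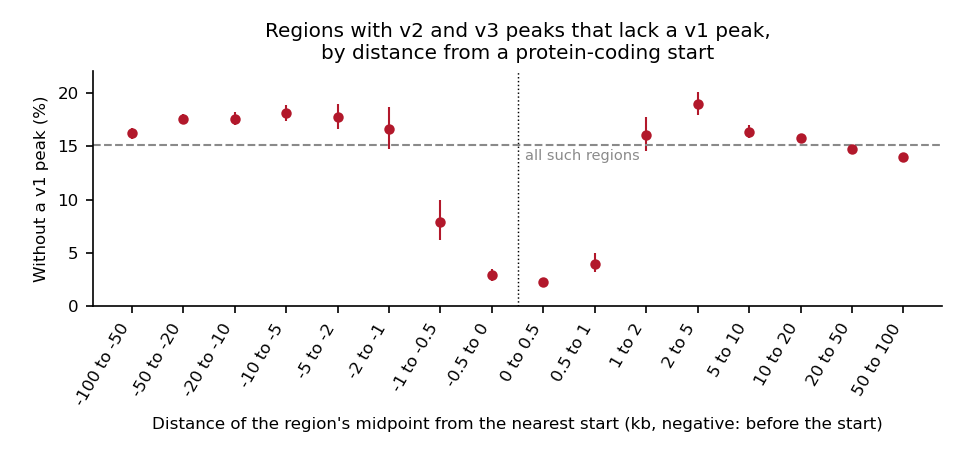
Share (%) of the regions with v2 and v3 peaks that had no v1 peak, by distance of the region's midpoint from the nearest protein-coding start (kb, negative before the start), with exact 95% intervals. The dashed line is the 15.1% of all such regions, and the share falls to 2.90% and 2.28% in the bins next to the start.

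The contrast was also present at equal width. Among regions of 501 to 749 bp with v2 and v3 peaks, 24.7% of those over a start lacked v1 (19.7 to 30.3), against 32.3% of the others. At 750 to 999 bp the shares were 13.9% and 24.4%, at 1000 to 1499 bp 4.43% and 12.9%, and at 1500 bp or more 0.426% and 3.06%. Across all widths, 1.88% (1.65 to 2.13) of the regions over a start lacked v1, against 15.6% of the others. Few regions over a start were found in every class that misses a library. A start lay in 0.429% (0.377 to 0.487) of the v1-absent regions, against 3.93 to 4.07% of the regions of all 3, 0.268% of those without v3, 0.212% of those without v2, and between 0.154% and 0.291% of the regions of a single library.

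For gene ends, which take in the 3′ ends as well, the gap was small at equal width except among wide regions. Over all widths, 3.61% (3.46 to 3.77) of the v1-absent regions and 8.39% of the regions of all 3 lay at most 1 kb from an end of a protein-coding gene span, and the share was lower in v1-absent regions on 20 of 20 chromosomes. At 501 to 749 bp the shares were 3.02% (2.82 to 3.24) and 3.63% (3.48 to 3.79), at 750 to 999 bp 3.59% and 3.92% with overlapping intervals, and at 1000 to 1499 bp 4.16% and 5.78%. At 1500 bp or more they were 5.87% and 13.2%.

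The starts that did fall in v1-absent regions were mostly poor in CG. The promoter table gave 21045 protein-coding starts, and 250 of them, from 239 genes, lay in 238 v1-absent regions, which is 1.19% of starts. In the 300 bases around these starts the median number of CG dinucleotides was 4, with the middle 50% between 2 and 7, against 19, with 10 to 28, for the 15145 starts in regions of all 3 libraries. At least 12 CG were found in 11.2% (7.57 to 15.8) of the starts in v1-absent regions, against 72.5% of those in regions of all 3 and 53.3% of all starts. Starts in regions without v3 had similar counts, with a median of 4 and 9.55% (6.63 to 13.2) at 12 or more, and starts with no peak in any library had a median of 2 and 2.59%. The low CG count was therefore shared with starts in other incomplete regions. The threshold of 12 was chosen after the counts were seen. The regions around the starts were not matched for width. Of the 238 v1-absent regions over a start, 44 were at least 1500 bp wide. Of all 12643 regions over a start with both v2 and v3 peaks, 10321 were.

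**Figure D3:**
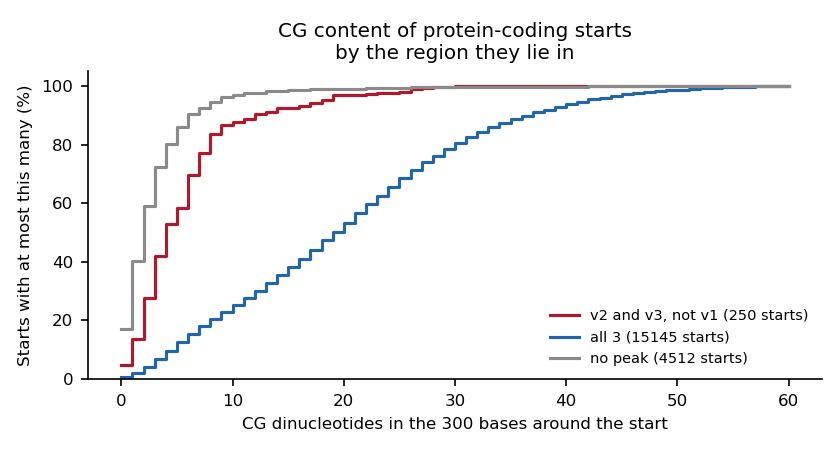
Share of starts (%) with at most the given number of CG dinucleotides in the 300 bases around the start, for the 250 starts in v1-absent regions, the 15145 in regions of all 3 and the 4512 without a peak. The curve of the v1-absent regions lies near that of starts without a peak, with medians of 4 and 2, and far to the left of the regions of all 3, with a median of 19.

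Short motifs differed between the same groups of starts. GGGCGG, the letters of the GC box, occurred on either strand in 19.2% of the starts in v1-absent regions, against 61.3% of those in regions of all 3 and 46.7% of all starts. CCGGAAG, the core of ETS factor sites, occurred in 3.2%, against 15.3% and 11.7% of the same 2 groups, which are given in this order for the other motifs too. TATAAA, the letters of the TATA box, occurred in 15.6% (11.3 to 20.7), against 7.16% and 12.7%. CCAAT was found in 32.0% against 37.1% and 38.5%, CACGTG in 9.2% against 9.47% and 7.91%, TGACTCA in 6.4% against 3.67% and 4.69%, and TGACGTCA in 0.4% against 2.88% and 2.26%. Starts in regions without v3 were close to those in v1-absent regions, with GGGCGG in 19.4%, CCGGAAG in 2.69%, TATAAA in 20.9% (16.7 to 25.6) and TGACTCA in 6.57%, so these shares are not particular to the v1-absent regions. No motif contains the letters of another, and each was searched alone in the 300 bases on both strands.

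Some of the genes with a start in a v1-absent region are known from cells or tissues other than neurons. Receptors and signalling genes of immune cells were among them, such as the T cell genes Zap70, Ctla4 and Il2ra, the Slam family genes Slamf1, Cd48 and Cd244a, and Stat4, Syk and Fcgr4. Of the 10 Toll-like receptor genes in the promoter table, 4 had such a start, namely Tlr1, Tlr9, Tlr12 and Tlr13, while 4 had a start in a region of all 3. Of 73 genes with a Cd number as symbol 6 had one (8.22%) and 39 a start in a region of all 3. Of 13 myosin heavy chain genes 3 had one (Myh1, Myh7b and Myh8) and 7 a start in a region of all 3. The counts were 2 (3.03%) and 37 for 66 genes with an Il number as symbol, and 7 (2.41%) and 231 for 290 solute carrier genes. They were 11 (1.17%) and 22 for 944 olfactory receptor genes, whose share is that of all starts, 1.19%. None was found among 331 zinc finger genes named Zfp or among 75 ribosomal protein genes, of which 298 and 70 had a start in a region of all 3. These gene names were grouped after the list had been read, so the counts describe it and support nothing further. Starts in regions missing another library were not grouped in this way. Whether such genes are particular to the v1-absent regions was therefore not tested.

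Single starts give a sense of these regions. The Ctla4 region, 711 bp wide at chromosome 1, 60908908 to 60909618, was made of 1 peak of 500 bp from v2 and from v3 each and lay 5778 bp from a v1 peak. The Zap70 region was 830 bp wide, covered throughout by a v2 peak and over 742 bp by a v3 peak, at 1925 bp from v1. The Tlr1 region spanned 1872 bp, all of it under 1 v3 peak and 1000 bp of it under 2 v2 peaks, at 7625 bp from v1. Starts of the cardiac and endodermal transcription factor gene Gata5, with a region of 1280 bp at 10751 bp from v1, and of Kiss1, which encodes the reproductive neuropeptide kisspeptin, with a region of 1358 bp at 1223 bp from v1, also belonged to this class. Of the 394 genes of the gene lists described below that have an entry in the promoter table, 2 had their start in a v1-absent region, Zap70 and Myh1. Over the whole promoter table this held for 239 of 17274 genes and for 1.19% of starts.

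A small number of miRNA genes lay in v1-absent regions. Of 1005 miRNA hairpins in RefSeq's table, 24 overlapped one, which is 2.39%, against 502 that overlapped a region of all 3. Over all regions with both v2 and v3 peaks, 15.1% were v1-absent. Regions without v3 met 50 hairpins and regions of v2 alone 93, so hairpins were not particular to the v1-absent regions. The mature sequences of 6 of the 24, chosen after the list was seen because they are miRNAs described in brain or in development, are printed 5′ to 3′ with the seed (bases 2 to 8) in capitals.
mmu-miR-181a-5p: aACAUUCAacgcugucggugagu
mmu-miR-181b-5p: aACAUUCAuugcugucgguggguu
mmu-miR-384-5p: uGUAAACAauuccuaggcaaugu
mmu-miR-504-5p: aGACCCUGgucugcacucuauc
mmu-miR-196a-5p: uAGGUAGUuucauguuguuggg
mmu-miR-32-5p: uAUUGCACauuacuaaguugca

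The first pair shares its seed and its host. Mir181a-2 and Mir181b-2 lie in Nr6a1, a nuclear receptor gene, and both hairpins met 1 region of 1402 bp at chromosome 2, 38852458 to 38853859, which was 9768 bp from the nearest v1 peak, although the second hairpin reached past its end. The miR-181 family is known from lymphocytes and brain. The seeds of the other 4 differed from this one and from each other. Mir384 lay on the X chromosome in a region of 1066 bp at 535 bp from v1, and Mir504, inside Fgf13, a gene of a fibroblast growth factor relative that acts on sodium channels, in a region of 506 bp at 1908 bp from v1. Mir196a-2, a miRNA gene of the HoxC cluster, lay in a region of 1732 bp at 907 bp from v1, and Mir32, inside Tmem245, in one of 518 bp at 505 bp from v1.

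Within genes, v1-absent regions were spread widely. At least 1 lay in the window of 10839 of the 21631 protein-coding genes, the window being the span plus flanks of 5 kb, and this was 50.1% of genes. Over all windows together, 7.25% of the merged regions were v1-absent, and the median over the 19887 genes with any region was 3.70%. Of the 6287 genes with at least 20 regions, 580 had no v1-absent region, the median share was 6.67% and 5% of the genes had a share above 19.3%. The number followed gene length, since 20.4% of genes under 10 kb and 98.7% of genes over 300 kb had at least 1.

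The genes with the most v1-absent regions were very long neuronal genes of adhesion and signalling, with shares between 6.77% and 15.3%, against 7.25% over all genes. They were picked by this number, and long genes as a group had no raised share. It was 6.69% over all genes longer than 300 kb and 7.29% (6.89 to 7.71) over a list of 20 very long genes. Ptprd, a receptor tyrosine phosphatase of synapses, had 144 among 1259 regions (11.4%), with 1460 peaks in v2, 1245 in v3 and 1231 in v1. Dpp10, an auxiliary subunit gene of A-type potassium channels, had 121 among 813 (14.9%), and Lsamp, an adhesion molecule of the limbic system, had 119 among 1151 (10.3%). Dlg2, a postsynaptic scaffold gene, had 95 among 948, Nrxn3, a presynaptic adhesion gene, had 75 among 888, and Cntnap2, a contactin-associated gene of axons, had 72 among 1064 (6.77%). Ptprt, another receptor tyrosine phosphatase gene, had 82 among 537 (15.3%), with 564 peaks in v2, 368 in v3 and 316 in v1. Nkain2 had 74 among 554 (13.4%), Kcnip4 73 among 629 and Opcml 72 among 594.

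The genes with the largest share were shorter, between 32.0 and 87.2 kb. Psmb2, which encodes a catalytic-ring subunit of the proteasome, had 10 v1-absent regions among 20, with 17 peaks in v2, 20 in v3 and 5 in v1. Ubap2l, a ubiquitin-associated protein gene of stress granules, had 12 among 29 (41.4%), with 28 peaks in v2, 29 in v3 and 9 in v1. Nvl had 12 among 30 and Cul5 14 among 35, both 40.0%. In each of these genes both v2 and v3 had at least 2 times as many peaks as v1, which in part follows from the choice.

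The other genes of this group were Dcaf10, an adaptor gene of ubiquitin ligases, with 9 among 23, and Vps26a, a subunit gene of the retromer that sorts endosomal cargo, with 9 among 23. Med14, the backbone subunit gene of the Mediator complex, had 15 among 39, Far1, which makes fatty alcohols for ether lipids, 13 among 34, Larp4, an RNA-binding protein gene, 11 among 29, and Acsl5, a fatty acyl-CoA synthetase gene, 12 among 32. Where the promoter table gave a start for these 10 genes, it lay in a region of all 3 libraries, as for Nvl and Cul5 above, and Psmb2 has no entry. Psmb2, Dcaf10 and Vps26a had a v1-absent region within 1 kb of an end of the gene span, and the other 7 genes had none there.

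**Figure D4:**
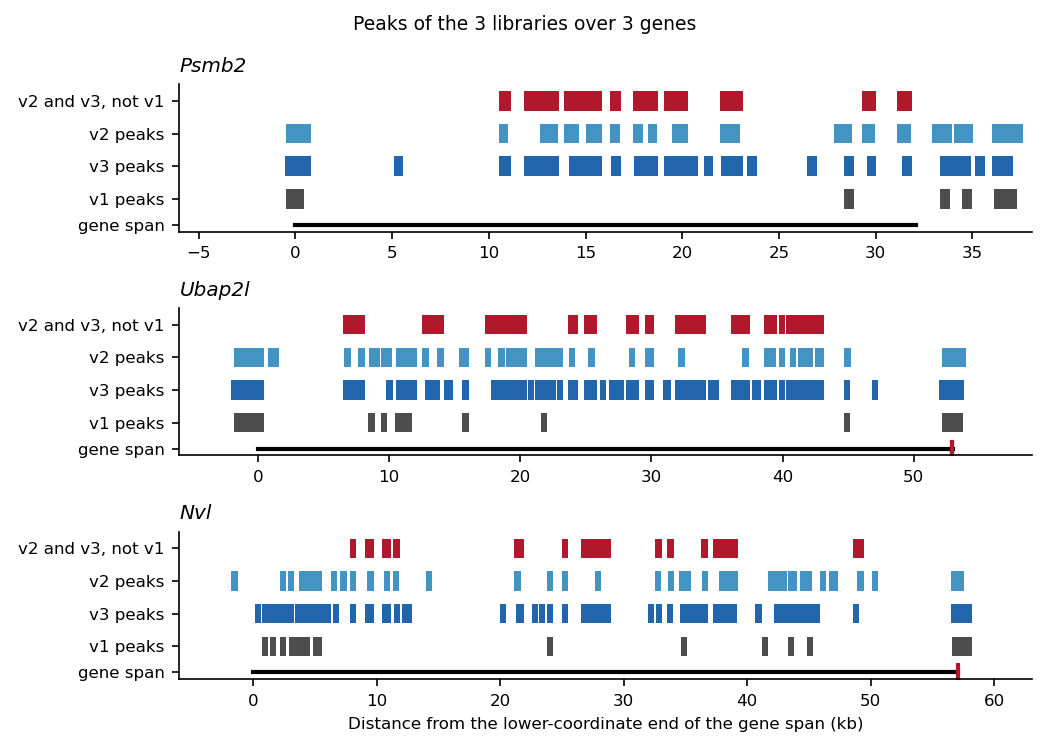
Peaks of v2, v3 and v1 and the v1-absent regions over the 3 genes with the largest share, by distance from the lower-coordinate end of the gene span (kb). The black line is the gene span and a red tick marks a start in RefSeq's promoter table, which has none for Psmb2. In Psmb2 a stretch of 27934 bp between neighbouring v1 peaks holds 8 v1-absent regions.

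The map of Psmb2, Ubap2l and Nvl shows where v1 had peaks. In Psmb2 (chromosome 4, 126677637 to 126709715) a stretch of 27934 bp between 2 v1 peaks held 8 v1-absent regions and 5 regions of v3 alone, and 7 of them followed each other directly from 126688142 to 126697933. In Ubap2l (chromosome 3, 89999589 to 90052609) a stretch of 22631 bp without v1 peaks held 9 v1-absent regions and 5 of v3 alone. In Nvl (chromosome 1, 181087138 to 181144214) the 12 v1-absent regions lay in several stretches between the 11 v1 peaks of the window.

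At the other end stood long genes with no v1-absent region at all. Plch1, a phospholipase C gene, had 0 among 112 merged regions, of which 36 had both v2 and v3 peaks, with 122 peaks in v2, 41 in v3 and 81 in v1. Adcy8, a calcium-stimulated adenylyl cyclase gene, had 0 among 109, of which 45 had both, with 103 peaks in v2, 62 in v3 and 105 in v1. Slc25a13, a mitochondrial carrier gene, Myo10, an unconventional myosin gene of filopodia, and Adamts12, an extracellular protease gene, had 0 among 102, 101 and 97. The last 3 genes had 27, 53 and 32 regions with both v2 and v3 peaks. None of such regions in these 5 genes lacked v1, against 13.3% over all genes, and the genes were picked for this. Each of the 5 genes had fewer v3 than v1 peaks. The cause of the missing v1-absent regions was not tested.

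Neighbouring regions shared the class somewhat more often than its overall frequency. The next region along the chromosome was also v1-absent after 11.3% of them, against 6.93% of all regions, and every other class followed itself more often than its own frequency as well. Most v1-absent regions, 45322 or 79.2%, had neighbours of other classes on both sides, and 2560 (4.47%) lay in 784 runs of 3 or more. The 5 longest runs had 7 regions each. They lay in Psmb2, in Cul5 (9960 bp, with a v1 peak 68 bp away), in Ssh2, a phosphatase gene of actin dynamics (12147 bp), and at 2 places on chromosome 11 outside protein-coding genes (57435103 to 57450736 and 95210101 to 95224993). Runs of 6 included one of 5333 bp in Htr2a, the serotonin 2A receptor gene, and one in Itgae, an integrin gene of tissue-resident lymphocytes.

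Stretches between neighbouring v1 peaks give another view. There were 622734 of them, with a median of 1109 bp, and 47434 held at least 1 v1-absent region. In 137 stretches there were 5 or more, 783 in total. The most in one stretch was 10, in Ahctf1, a nuclear pore and chromatin protein gene (28155 bp), in Pgm2l1, a sugar phosphomutase gene (19735 bp), and in a stretch of chromosome 11 without a protein-coding gene (26573 bp). Med14 followed with 9 in 38628 bp on the X chromosome. Runs and stretches were looked for after the values of single genes had been seen.

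The X chromosome stood apart in 1 of 2 measures. Of all its merged regions 6.79% were v1-absent, within the autosomal range of 5.58% on chromosome 3 to 9.21% on chromosome 9. Of its regions with both v2 and v3 peaks, 20.3% (19.4 to 21.1) lacked v1, above the autosomes, which ranged between 12.8% on chromosome 15 and 18.3% on chromosome 9. The sex of the animals is not given in the sources used here.

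Lists of genes for brain cell types, other tissues and basic cell functions were set beside the 7.25% of all windows, 28 lists with 516 genes in all. In 19 lists the exact interval of the pooled share included 7.25%, in 6 it lay above and in 3 below. With v2 and v3 peaks wider than 500 bp alone, 1 list lay above. Some lists also changed side when only regions with both v2 and v3 peaks were counted, of which 13.3% lacked v1 over all genes. The proteasome list, the RNA polymerase II and Mediator list and the oligodendrocyte precursor list then included that share. The excitatory neuron, oligodendrocyte, ribosomal protein and oxidative phosphorylation lists moved below. The ependymal list moved above, at 22.4% (14.0 to 32.7). The labelled tissue was checked with 10 of the brain lists: a peak stood at most 1 kb from a gene end for 116 of their 118 genes in v2, 114 in v3 and 112 in v1, against 43 in v2, 34 in v3 and 36 in v1 of 48 genes of liver, skeletal muscle, lymphocytes and red cells. Regions in 1 gene are not independent, so each share is also given without the gene with the most v1-absent regions where that changes its side.

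**Figure D5:**
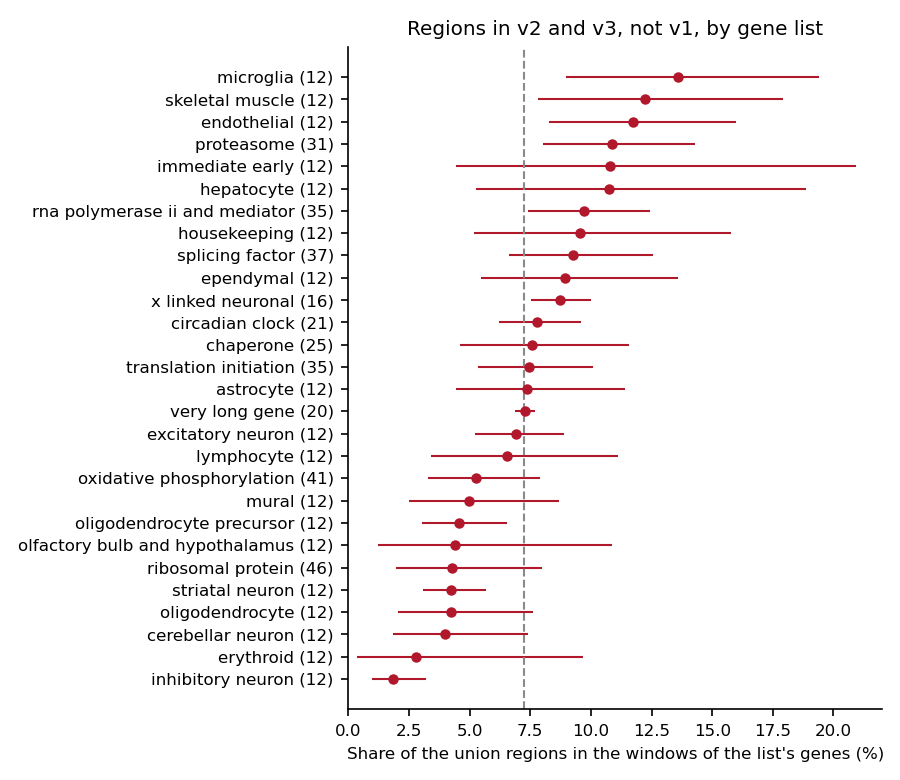
Share (%) of the merged regions in the windows of each list's genes that were v1-absent, with exact 95% intervals and the number of genes in brackets. The dashed line is the 7.25% of all protein-coding windows, and the points run from 13.6% for microglial genes to 1.86% for inhibitory neuron genes.

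Genes of microglia, the resident immune cells of the brain, had the largest share of all merged regions. Of their 184 regions 25 were v1-absent (13.6%, 8.99 to 19.4), in 8 of 12 genes, and the median over the genes was 17.0% against 3.70% over all genes. Among their regions with both v2 and v3 peaks, 21.0% (14.1 to 29.4) lacked v1, which was not the largest share. By that measure skeletal muscle genes stood at 26.5%, endothelial genes at 24.6% and liver genes at 23.8%. Ependymal genes stood at 22.4% and the neuronal genes on the X chromosome at 21.3%. Itgam, the integrin gene of the CD11b antigen, had 5 among 14, with 9 peaks in v2, 13 in v3 and 4 in v1. Cx3cr1, the fractalkine receptor gene, had 5 among 16, with 17 peaks in v2, 18 in v3 and 12 in v1. Csf1r, the receptor gene on which microglia depend for survival, had 4 among 23, while P2ry12, Sall1 and Trem2 were among those with none, P2ry12 among 41 regions. Without Itgam the share was 11.8% (7.34 to 17.6). With gene spans alone it was 10.6%, and the interval then included the share of all genes. A higher share of v3 peaks in microglial and endothelial genes was already known from these lists, so these values are no independent support for it.

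Genes of endothelial cells had 34 among 290 (11.7%, 8.26 to 16.0), in 6 of 12 genes, with a median of 2.78%. Erg, an ETS transcription factor gene, had 15 among 81, with 86 peaks in v2, 64 in v3 and 45 in v1, and Flt1, a VEGF receptor gene, had 7 among 45, with 35 peaks in v2, 37 in v3 and 19 in v1. Pecam1, a junction adhesion gene, had 7 among 30, and Cdh5, Tie1, Sox17, Slc2a1, Mfsd2a and Ly6c1 had none. Without Erg the share was 9.09% (5.56 to 13.8), an interval that includes 7.25%.

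Of the proteasome subunit genes 17 of 31 had at least 1 v1-absent region, 44 among 405 regions (10.9%, 8.01 to 14.3), with a median of 5.88%. Without Psmb2 the share was 8.83% (6.19 to 12.1), and Psmb7 came next with 5 among 32. Genes of RNA polymerase II and Mediator had 55 among 567 (9.70%, 7.39 to 12.4), and without Med14 7.58% (5.47 to 10.2). With flanks of 20 kb the interval of this list, then at 8.73%, included the share of all genes. Both lists thus owed their place above the line to 1 gene each. Skeletal muscle genes had 22 among 180 (12.2%, 7.82 to 17.9), in 7 of 12 genes, among them Ryr1, the calcium release channel gene, with 8 among 68, and Myh1, Myh2 and Myh4 with 3 each, whose windows adjoin each other. Without Ryr1 it was 12.5% (7.01 to 20.1), an interval that includes 7.25%. With flanks of 20 kb the share of the list was 9.34% and its interval included that of all genes. The 16 neuronal genes on the X chromosome had 182 among 2089 (8.71%, the interval starting at 7.54), and the share was 9.34% (7.86 to 11.0) without Dmd, the dystrophin gene, which had 52 among 697.

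Genes of inhibitory neurons had the smallest share. Their windows held 12 among 646 regions (1.86%, 0.963 to 3.22), in 3 of 12 genes. Erbb4, the neuregulin receptor gene of interneurons, had 9 among 493, with 403 peaks in v2, 224 in v3 and 441 in v1, and so carried most of the regions counted. Gad2 and Gad1, the genes of GABA synthesis, had 2 among 51 and 1 among 23. The homeobox genes Dlx1, Dlx2, Dlx5, Dlx6 and Lhx6, the transporter gene Slc32a1 and the subclass genes Sst, Pvalb and Vip had none. Without Erbb4 the share was 1.96% (0.406 to 5.62). Among the regions of these genes with both v2 and v3 peaks, 5.06% (2.64 to 8.68) lacked v1, against 13.3% over all genes.

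Striatal neuron genes stood at 4.24% (3.08 to 5.66), in 6 of 12 genes, with 25 among 339 in Foxp1, a transcription factor gene, and 8 among 231 in Pde10a, a phosphodiesterase gene. The dopamine receptor gene Drd1 and the peptide genes Penk and Tac1 had none. Genes of oligodendrocyte precursors stood at 4.57% (3.06 to 6.53), in 8 of 12 genes. Sox6, a transcription factor gene, held 15 of their 28 v1-absent regions, among 137, and the growth factor receptor gene Pdgfra and the transcription factor genes Olig1 and Olig2 had none. Ribosomal protein genes, at 4.29% (1.98 to 7.98), had at least 1 in 7 of 46 genes, and excitatory neuron genes, at 6.89% (5.23 to 8.88), in 7 of 12, with 15 among 249 in Grin2b and 14 among 228 in Grin2a, the NMDA receptor subunit genes.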

How the data were processed

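The authors deposited 1 peak list per library, in which each line gives the chromosome, start and end of a peak, with no score, height or read count. ArchR and MACS2 were used on the build mm10, per the submitters' processing notes. The sources used here give no calling threshold, excluded regions or depth, so depth per library is unknown. The lists covered 20 chromosomes and no peak was under 500 bp.

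Peaks sharing at least 1 bp were merged with Python 3.11.15, NumPy 2.4.6 and pandas 2.3.3, and figures were drawn with matplotlib 3.10.9. Coordinates are 1-based. Gene spans (21631 protein-coding, without strand or exons) and promoters (250 bases before to 50 after a start, with strand) were RefSeq's for GRCm38.p6, which is mm10. Promoters of chromosome 18 were not used here. The merging, class and interval steps were checked on simulated data.

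The members and the gene lists were chosen with earlier results of these data known. The genes named are the 10 with the most v1-absent regions, the 10 with the largest share among genes with at least 20 regions, the 5 with none and the most regions, and the 2 per list with the most. Other list genes, the comparison with v2 and v3 regions alone, gene name groups, miRNAs, runs, stretches, and shares without 1 gene were chosen after values were seen. Named regions are the 5 widest, the 5 widest over a start and the 5 farthest from v1. Each version has 1 library, so versions were not tested against each other and there are no p-values. Intervals are exact Clopper-Pearson intervals at 95% (SciPy 1.17.1) and cover counting error only. The alternatives tried were other limits on coverage, distance to v1, peak width, joining and gene windows.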

Additional observations from a re-analysis of the deposited data

How the results depend on the processing

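Presence of a peak is the sole measurement, so depth and calling threshold, both unknown, limit every absence of v1. With v2 and v3 peaks wider than 500 bp alone, the class held 9860 regions in place of 57244, in the windows of 3912 genes in place of 10839, with 4.47% within 1 kb of gene ends in place of 3.61%, and 1 gene list in place of 6 had its interval above the share of all genes. The other settings gave 38185 to 57183 regions, 8731 to 14981 genes and 5 or 6 lists. The share in genes was 51.6% with no v1 peak within 500 bp, 54.6% with peaks within 100 bp joined and 65.0% with all genes in place of protein-coding ones, against 57.7%. The share at gene ends was 3.44% where v2 and v3 each covered 50% of the region, and 2.36% with 500 bp around the ends. The microglia list moved inside with gene spans alone, and the muscle and polymerase lists with 20 kb flanks, where the splicing factor list moved above and the oligodendrocyte list below. With no v1 peak within 500 bp the cerebellar neuron and very long gene lists moved below. Joining regions that touch, chosen after seeing the data, gave 57183 regions. The cause of these changes was not tested. No paired analysis was possible because each version has 1 library, and for the same reason no library could be left out.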
